A study of Homo sapiens with 20 samples.

Results

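The exons and introns examined here are the 409 splicing events that the authors' deposited tables list both after depletion of SRSF3 and after depletion of SRSF7 in HEK293T, an immortalised line derived from human embryonic kidney. They were found by matching event identifiers between the 3619 exons and introns of the SRSF3 table and the 1559 of the SRSF7 table, and they are 409 of the 19275 distinct events in the 7 deposited tables. The 409 comprised 389 exons and 20 introns in 361 named genes, with 2 events that carried no gene name.

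Stranded mRNA libraries were made from cells transfected with siRNA for 48 hours using Lipofectamine RNAiMax, with 2 samples in each group. The siSRSF3 cells belong to the set the labels number 3 and were compared with the non-targeting siRNA group siNT2 of that set, whereas the siSRSF7 cells belong to set 2 and were compared with siNT1. Set 2 also holds siSRSF1, siSRSF2 and siSF3B5 cells, set 3 also holds siRBM39 cells, and set 1 holds cells given the Aurora-A inhibitor MLN8237 or DMSO for 24 hours. The series asked whether the mitotic kinase Aurora-A acts together with splicing factors. The level of SRSF3 and SRSF7 was not analysed here, and neither table lists an exon or intron of either gene, so the depletions were not checked.

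SR proteins bind exonic RNA through an RNA recognition motif and recruit the spliceosome through a domain rich in arginine and serine. SRSF3 and SRSF7 are the closest to each other among the small members of the family: both shuttle between nucleus and cytoplasm and hand spliced mRNA to the export factor NXF1, and SRSF7 carries in addition a zinc knuckle that takes part in RNA binding. SRSF3 is known to prefer pyrimidine-rich short sites, and SRSF7 purine-rich sites of the GAY type.

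Inclusion is given as percent spliced in (PSI), the percent of transcripts of a gene that contain the exon or keep the intron. Every PSI below is the authors' average of a group and has no replicate error, and the read depth behind it is unknown. A change is the treated average minus the average of the table's own control, in percentage points. The events were chosen by the measured PSI changes themselves, through being listed in both tables, and each table holds only changes above 15 points in either direction, so the sizes and directions below are descriptions without a test.

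A set of 8 of the matched exons show the range of sequences involved, a pair from each combination of directions. They are coding exons with a single match of gene and length in GENCODE release 29, printed on the transcript strand of GRCh38 from the GENCODE transcripts. Capitals mark the 6 motifs searched. The SRSF3-type motifs were CTTC, CATC and also CAAC. Those grouped with SRSF7 were GACGA, then GATGA, and in addition the purine-rich GAAGA, which is not of the GAY type. SH3PXD2A and PTBP2 had lower inclusion after both depletions, KIAA0895 and LYSMD4 higher after both, CASK and ELMOD1 lower after SRSF3 and higher after SRSF7 depletion, and IL17RB and PTPN18 the reverse.
SH3PXD2A, chr10:103622470-103622553, minus strand: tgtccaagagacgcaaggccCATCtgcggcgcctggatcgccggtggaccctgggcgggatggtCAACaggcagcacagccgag
PTBP2, chr1:96806419-96806452, plus strand: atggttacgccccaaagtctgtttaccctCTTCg
KIAA0895, chr7:36336154-36336297, minus strand: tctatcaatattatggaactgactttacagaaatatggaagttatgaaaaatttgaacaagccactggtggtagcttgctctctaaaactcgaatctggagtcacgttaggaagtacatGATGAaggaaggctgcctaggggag
LYSMD4, chr15:99731173-99731198, minus strand: cattcagagtgattaacaatggcaaa
CASK, chrX:41555600-41555635, minus strand: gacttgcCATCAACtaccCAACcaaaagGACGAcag
ELMOD1, chr11:107650885-107650908, plus strand: ggatatcactaaaGAAGAaataag
IL17RB, chr3:53855294-53855341, plus strand: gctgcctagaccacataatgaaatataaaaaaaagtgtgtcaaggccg
PTPN18, chr2:130358867-130358975, plus strand: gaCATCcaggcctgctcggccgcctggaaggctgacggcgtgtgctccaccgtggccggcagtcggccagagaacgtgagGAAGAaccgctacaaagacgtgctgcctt

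Of the 389 shared exons, 249 had a lower PSI after both depletions and 44 a higher PSI after both. Another 57 were lower after SRSF3 and higher after SRSF7 depletion, and 39 were higher after SRSF3 and lower after SRSF7 depletion. The 2 depletions thus moved 293 exons the same way, which is 75.3% (exact Clopper-Pearson 95% interval 70.7% to 79.5%, covering counting error only), and 96 exons in opposite ways. Lower inclusion was the common direction in both lists: 78.7% of the shared exons were lower after SRSF3 depletion, against 80.9% of all 3354 exons in the SRSF3 table, and 74.0% were lower after SRSF7 depletion, against 78.5% of all 1397 exons in the SRSF7 table. The 389 were 11.6% of the SRSF3 exons and 27.8% of the SRSF7 exons. For comparison, of the 12590 exons in the other 4 depletion tables, 13.5% were also listed after SRSF3 depletion, 8.17% after SRSF7 depletion and 2.57% after both. Taken singly, 25.6% of the SRSF1 exons, 23.9% of the SRSF2 exons and 11.2% of the SF3B5 exons were also listed after SRSF3 depletion. RBM39 depletion listed 28.9% of the SRSF7 exons, so an overlap of this size was not particular to SRSF3 and SRSF7.

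**Figure D1:**
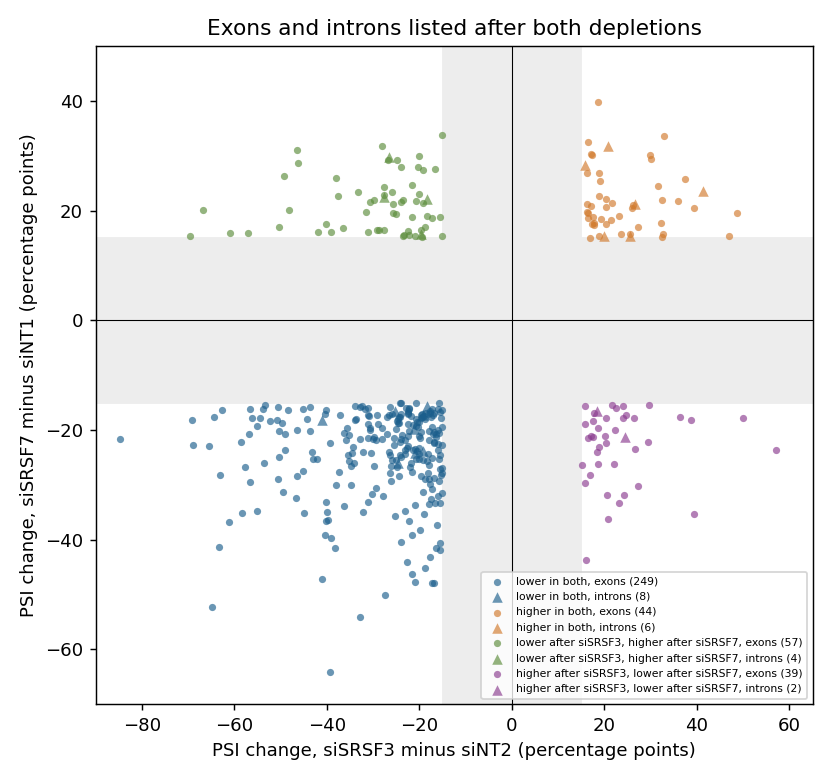
Change in PSI after SRSF3 depletion (x axis) against change after SRSF7 depletion (y axis), in percentage points, for the 389 exons (circles) and 20 introns (triangles) that both tables list; colours give the combination of directions and the grey bands the range within 15 points that the tables leave out. The lower left corner holds 249 of the exons, and within it the points show no slope.

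Direction followed the control level. All but 1 of the 130 exons with both controls above 80 were lower after both depletions, and all 11 with both controls under 20 were higher after both. An exon that is nearly always included can be listed only as lower, so direction there is largely set by the control level. Among the 208 exons with both controls from 20 to 80, which could move either way, 97 were lower in both, 30 higher in both, 46 lower after SRSF3 and higher after SRSF7 depletion, and 35 the reverse. The same-direction share there was 61.1% (54.1% to 67.7%). Within this middle range, 67.8% of the 143 exons lower after SRSF3 depletion (59.5% to 75.4%) and 53.8% of the 65 higher after it (41.0% to 66.3%) were lower after SRSF7 depletion. The intervals overlap, and the difference was not tested.

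The sizes of the 2 changes were nearly uncorrelated within a direction. The median absolute change was 24.1 points after SRSF3 and 21.6 points after SRSF7 depletion, and 229 of the 389 exons moved further after SRSF3 depletion. Across the 249 exons lower in both, the changes had a Pearson correlation of 0.0118 and a Spearman correlation of -0.0309. The 44 exons higher in both gave -0.0951 and -0.0934. These describe exons beyond the listing threshold, which cuts off small changes on both axes.

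**Figure D2:**
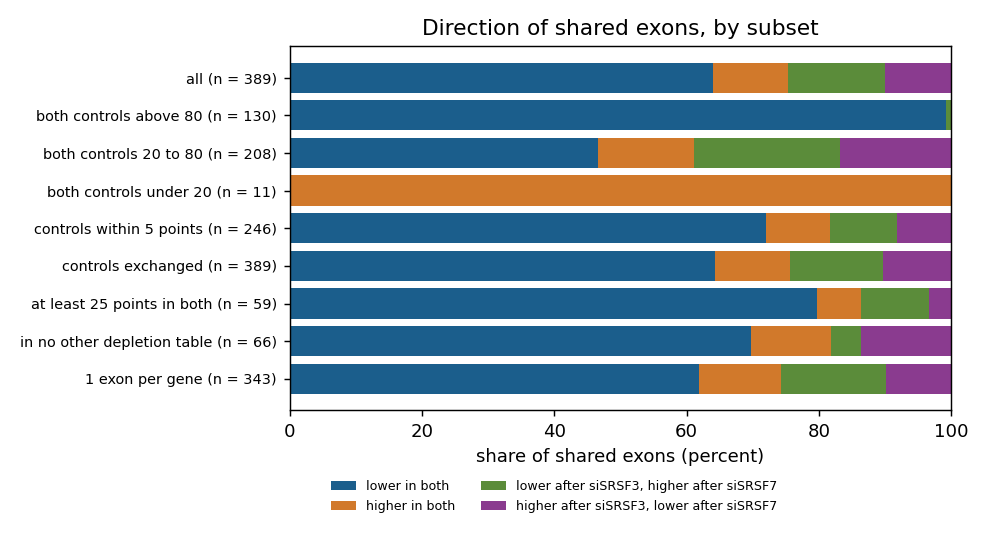
Share of shared exons in each combination of directions (x axis, percent), for all 389 and for subsets by control PSI, by difference between controls, with the controls exchanged, by size of change, by absence from the other 4 depletion tables and with 1 exon per gene. Nearly all exons with controls above 80 were lower in both, and opposed exons take their widest share where both controls lay from 20 to 80.

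Exons lower after both depletions went from a median PSI of 83.1 in siNT2 to 52.3 in siSRSF3 cells and from 81.3 in siNT1 to 55.8 in siSRSF7 cells. Ranked by the smaller of its 2 changes, the leading exon was 106 bases of THEMIS2, a signalling adaptor of immune cells: its PSI was 84.1 in siNT2 and 19.2 in siSRSF3 cells, and 80.4 in siNT1 and 28 in siSRSF7 cells. It went from the major to the minor form in both. Below, where PSI values come as a pair of pairs, the first pair is siNT2 then siSRSF3 cells and the second siNT1 then siSRSF7 cells. SH3PXD2A, which encodes the podosome scaffold TKS5, had an 84-base coding exon (printed above) at 94.0 and 53.0 in the SRSF3 comparison and 92.6 and 45.4 in the SRSF7 comparison. A 127-base exon of RBCK1, a subunit of the linear ubiquitin ligase, read 75.2 and 35.9, and 83.6 and 19.4. For CHFR, a ubiquitin ligase of the mitotic checkpoint, a 57-base exon read 78.0 and 37.5, and 71.3 and 32.2. The 2 responses were almost equal in POC5, a centriole protein, whose 135-base exon went from 81.0 to 41.9 and from 81.2 to 41.4.

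Both exons listed for DIEXF, which acts in ribosomal RNA processing, were lower in both. The 224-base exon had the larger change after SRSF3 depletion, from 90.5 to 27.1, beside 92.8 to 51.5 after SRSF7 depletion. The 113-base exon was closer, at 92.5 and 52.3 against 94.5 and 57.8. SLC26A11, an anion transporter, likewise leaned toward SRSF3: its 200-base exon read 77.8 and 16.5, and 87.7 and 50.9.

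The 34-base coding exon of PTBP2 (chr1:96806419-96806452), the neural polypyrimidine tract binding protein, has a length that is not a multiple of 3, so skipping shifts the reading frame. Its PSI was 68.6 in siNT2 and 30.3 in siSRSF3 cells, and 61.8 in siNT1 and 20.3 in siSRSF7 cells. The other depletions split on it: the average was 37.2 in siSRSF1 cells but 92.8 in siSRSF2, 86.8 in siRBM39 and 86.4 in siSF3B5 cells. The siSRSF1, siSRSF2 and siSF3B5 values share the siNT1 control with siSRSF7, and the siRBM39 value shares siNT2 with siSRSF3.

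The 44 exons higher after both depletions had a median PSI of 34.6 in siNT2 and 57.7 in siSRSF3 cells, and 32.3 in siNT1 and 52.9 in siSRSF7 cells. A 144-base coding exon of KIAA0895 (printed above) had nearly the same values in the 2 comparisons, 55.8 and 88.6 against 56.4 and 90.1. In siSRSF1 cells it moved the other way, to 34.7. MAGI3, a junction scaffold, had a 91-base exon at 58.5 and 88.4, and 52.8 and 82.8. For PBX3, a homeodomain transcription factor, a 113-base coding exon read 53.0 and 90.5, and 42.6 and 68.3, while siSF3B5 cells had 15.9. LYSMD4, a LysM domain protein, had its 26-base exon at 26.0 and 56.1, and 16.4 and 45.8. DIS3, a nuclease of the RNA exosome, had 1 shared exon in each direction. Its 68-base exon went from 8.61 to 30.4 and from 8.41 to 29.7, and its 158-base exon, named here after its values were seen, went from 89.5 to 65.5 and from 91.3 to 66.5.

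Microexons of up to 27 bases were 9 of these 44 exons (20.5%), against 3 of the 249 lower in both (1.20%). Exons that 1 table lists and the other does not had them at 4.11% when higher and 0.873% when lower after SRSF3 depletion, and at 6.0% and 0.619% after SRSF7 depletion. The 9-base exon of MAP4K4, a kinase upstream of JNK, went from 58.3 to 94.1 and from 49.0 to 70.7. RAPGEF2, an exchange factor for Rap GTPases, had a 24-base exon at 59.6 and 92.1, and 64.9 and 86.9. A further 2 microexons are named after their values were seen: that of TEAD1, a transcription factor of the Hippo pathway, is 12 bases long and went from 13.5 to 33.9 and from 2.84 to 25, and that of SNX14, a sorting nexin, is 27 bases long and went from 46.8 to 65.5 and from 34.9 to 74.6. These 4 were taken from the class higher in both. Of all 15 shared microexons, 9 were in that class, 3 were lower in both and 3 were opposed.

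**Figure D3:**
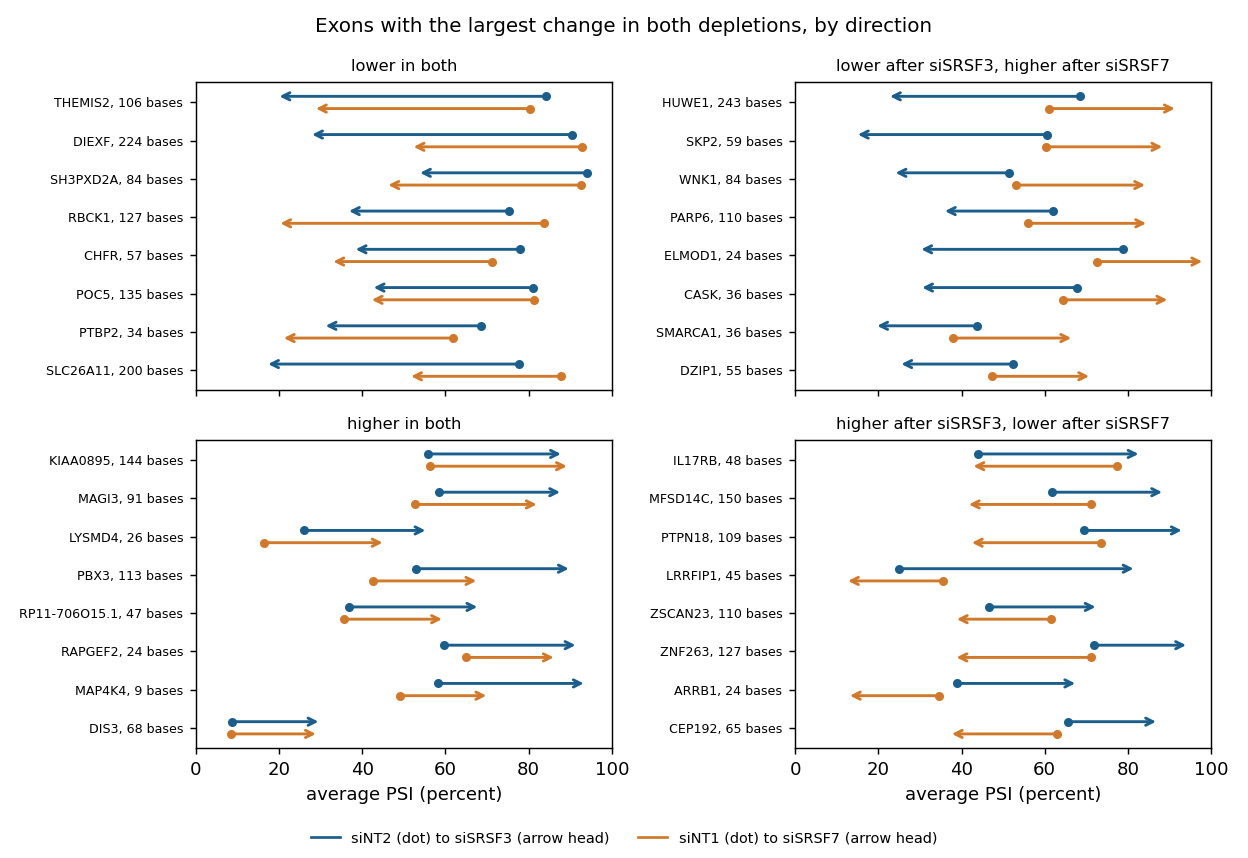
Average PSI (x axis, percent) of the 8 exons that lead by the smaller of their 2 absolute changes, for each combination of directions; dots are the non-targeting control, arrow heads the depleted group, blue for SRSF3 and orange for SRSF7. In the right-hand panels the 2 arrows of each exon point apart, as for HUWE1, where siSRSF3 ended at 21.9 and siSRSF7 at 92.1.

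The 57 exons lower after SRSF3 and higher after SRSF7 depletion started from a middle level, with medians of 60.5 in siNT2 and 53.6 in siNT1, and ended far apart, at 27.3 in siSRSF3 and 79.9 in siSRSF7 cells. A 243-base exon of HUWE1, a HECT-type ubiquitin ligase, was at 68.5 in siNT2 and 21.9 in siSRSF3 cells, and at 61.1 in siNT1 and 92.1 in siSRSF7 cells. Another HUWE1 exon, of 203 bases and named after its values were seen, was lower in both, at 94.0 and 76.2 against 94.6 and 78.1. SKP2, the F-box subunit of a cell cycle ubiquitin ligase, had a 59-base exon whose controls were level at 60.5 and 60.4 and whose treated values were 14.2 after SRSF3 and 89.1 after SRSF7 depletion. The 2 treated averages lay on opposite sides of almost equal controls.

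WNK1, a kinase that controls ion transport, had 2 such exons. The 84-base exon read 51.4 and 23.3 in the SRSF3 comparison and 53.2 and 85.0 in the SRSF7 comparison, and the 279-base exon, named after its values were seen, 44.9 and 20.9, and 45.2 and 66.7. CASK, a membrane-associated guanylate kinase scaffold, had its 36-base coding exon (printed above) at 67.8 and 29.7, and at 64.5 and 90.3. That of ELMOD1, a GTPase-activating protein, has 24 bases and read 78.8 and 29.5, and 72.5 and 98.7. PARP6, an ADP-ribosyltransferase, had a 110-base coding exon at 61.9 and 35.1, and 56.0 and 85.2. DZIP1, a cilium protein, had a 55-base exon at 52.3 and 24.6, and 47.3 and 71.5.

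In the opposite class, 39 exons were higher after SRSF3 and lower after SRSF7 depletion, with medians of 53.8 in siNT2 and 76.1 in siSRSF3 cells, and 61.8 in siNT1 and 37.0 in siSRSF7 cells. PTPN18, a tyrosine phosphatase, had a 109-base coding exon (printed above) at 69.5 and 93.8, and 73.4 and 41.6. Both shared exons of the zinc finger gene ZNF263 moved alike, the 127-base exon from 71.7 to 94.8 and from 71.2 to 37.9, and the 181-base exon, named after its values were seen, from 43.8 to 64.1 and from 37.3 to 15. ZSCAN23, also a zinc finger gene, had all 3 of its shared exons in this class, the 110-base exon at 46.6 and 73.1, and 61.5 and 38.0. The controls of these exons differed, with siNT2 minus siNT1 at -14.9, -13.6 and -14.1 points, and with the controls exchanged none of the 3 kept a change above 15 points in both. LRRFIP1 had a 45-base exon at 25.1 and 82.2, and 35.6 and 11.8. The 24-base exon of ARRB1, which encodes beta-arrestin 1, read 38.8 and 68.2, and 34.5 and 12.3. CEP192, a centrosome scaffold that recruits Aurora-A, had a 65-base exon at 65.5 and 87.6, and 63.0 and 36.8. MFSD14C, a gene with a close paralogue, had a 150-base exon at 61.8 and 89.1, and 71.0 and 40.9. That value is uncertain because reads could be shared with the paralogue.

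The non-targeting groups themselves differed. Over all shared exons siNT2 and siNT1 had a median absolute difference of 3.52 points and a maximum of 43.2 points. By class the median absolute difference was 2.76 points in exons lower in both, 4.56 in those higher in both, 5.90 in those lower after SRSF3 and higher after SRSF7 depletion and 4.54 in the reverse class. The median of siNT2 minus siNT1 was 0.885 in exons lower in both and 2.28 in those higher in both. It was 4.96 in exons lower after SRSF3 and higher after SRSF7 depletion, with siNT2 above siNT1 in 48 of 57, and -4.23 in the reverse class, with siNT2 above siNT1 in 9 of 39. In both opposed classes the sign of this control difference is the one that enlarges both changes. For IL17RB, an interleukin 17 receptor, the controls were at 44.1 and 77.3 and the treated values at 83.4 and 42.0, so each treated group lay near the other comparison's control. For TTC23, a cilium protein, a 195-base untranslated exon had controls at 96.0 and 52.8 and treated values of 65 and 69.0.

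With the controls exchanged between the tables, 387 of the 389 exons kept both directions, and TTC23 and C2CD3, a centriole protein, were the exceptions. The same-direction share was then 75.6%. A direction could turn only where the controls lay further apart than a change that was itself above 15 points. The controls lay over 15 points apart in 14 of the 389 exons, so the directions kept were largely fixed by the selection. Fewer kept a change above 15 points in both: 273 exons, or 81.1% of those lower in both, 61.4% of those higher in both, 52.6% of those lower after SRSF3 and higher after SRSF7 depletion, and 35.9% of the reverse class. Where the controls lay within 5 points of each other, 45 of 246 exons were still opposed. Set, control and depleted gene cannot be told apart in this design.

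Shared exons were longer where inclusion was lower. The median length was 145 bases (95% order-statistic interval 135 to 163) for exons lower in both and 73 bases (60 to 91) for those higher in both. It was 120 bases (106 to 138) for those lower after SRSF3 and higher after SRSF7 depletion and 109 bases (74 to 130) for the reverse class. The same order held in exons that only 1 of these 2 tables lists, with medians of 146.5 bases lower and 85 bases higher after SRSF3 depletion, and 111 bases lower and 83.5 bases higher after SRSF7 depletion. Of the 27 shared exons over 300 bases, 22 were lower in both.

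Lengths divisible by 3, which leave the reading frame intact when the exon is skipped, were more frequent among opposed exons. They made up 59 of 96 opposed exons (61.5%, 51% to 71.2%) and 120 of 293 same-direction exons (41.0%, 35.3% to 46.8%). The share was 70.2% in exons lower after SRSF3 and higher after SRSF7 depletion (40 of 57), 48.7% in the reverse class, 59.1% in exons higher in both and 37.8% in exons lower in both. Among exons with both controls from 20 to 80 it was 61.7% for opposed and 44.1% for same-direction exons. In exons not shared the share was 43.2% for SRSF3 and 46.1% for SRSF7, and 48.7% and 57.0% among those that were higher. With control PSI from 20 to 80 it was 49.0% and 50.9% in exons not shared. The reverse opposed class lay near these shares and below exons higher in both. These differences between classes were not tested.

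**Figure D4:**
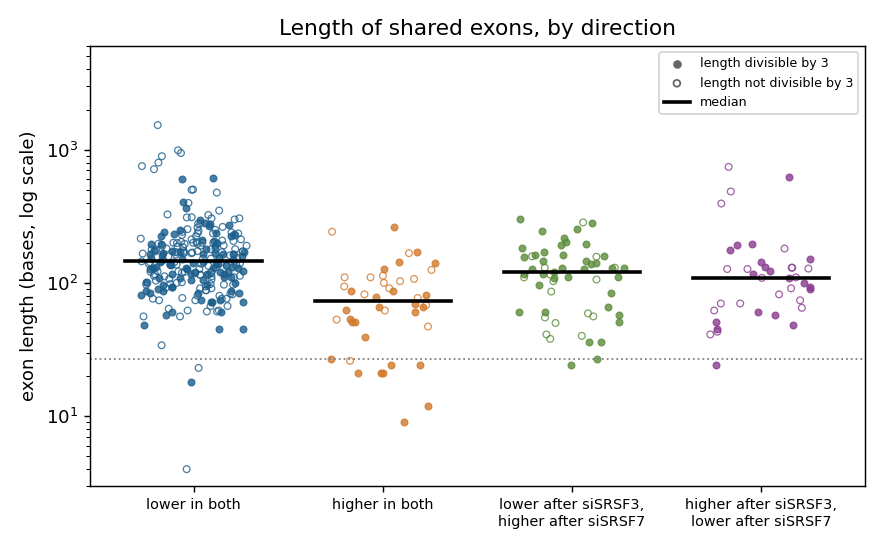
Length in bases (y axis, log scale) of each shared exon by combination of directions, with filled circles for lengths divisible by 3, black bars for medians and a dotted line at 27 bases. Exons lower in both have the longest median, 145 bases, most microexons lie in the class higher in both, and filled circles are most frequent in the class lower after SRSF3 and higher after SRSF7 depletion.

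A single annotated match of gene and length was found for 285 of the shared exons, and 210 of these (73.7%) were coding throughout. Another 37 were partly coding, 17 untranslated, 11 in nonsense-mediated decay transcripts only and 10 in non-coding transcripts only. Coding exons made up 78.2% of the matched SRSF3 exons and 79.0% of the matched SRSF7 exons that were not shared. Untranslated exons were 8 of 71 opposed exons (11.3%, 4.99% to 21.0%) and 9 of 214 same-direction exons (4.21%, 1.94% to 7.83%). These intervals overlap, and the difference was not tested. In exons not shared the untranslated share was 6.77% for SRSF3 and 7.58% for SRSF7. Among those that were higher it was 19.9% and 14.5%. HNRNPA2B1, an RNA-binding protein of the hnRNP family, had a 136-base exon found in nonsense-mediated decay transcripts only (chr7:26190993-26191128), at 69.3 and 48.4, and 70.6 and 37.0.

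In these 285 exons the motif CAAC was denser in exons lower after SRSF3 depletion. It occurred 207 times in the 229 exons lower after it, 0.498 per 100 bases, and 10 times in the 56 higher after it, 0.142 per 100 bases. At least 1 copy was present in 54.1% of the former, which held 41566 bases, and 14.3% of the latter, which held 7036. Longer exons have more room for a copy, and shares of this kind were not adjusted for length. By class the density was 0.499 in exons lower in both, 0.492 in those lower after SRSF3 and higher after SRSF7 depletion, 0.189 in those higher in both and 0.114 in the reverse opposed class. The share of exons with at least 1 copy was 56.5% in the first of these, 44.4% in the second, 13.3% in the third and 15.4% in the last. No difference between classes was tested. The CASK exon printed above holds CAAC at a pair of positions, 1 of them within CATCAAC, where it overlaps CATC. Exons of the SRSF3 table that the SRSF7 table does not list had 0.588 per 100 bases when lower and 0.173 when higher. The reverse complement GTTG had 0.183 and 0.298 in the shared exons.

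CTTC and CATC were also less frequent in the exons higher after SRSF3 depletion. CTTC occurred 0.833 and 0.932 times per 100 bases in the classes lower after it and 0.379 and 0.592 times in the classes higher after it. The counterparts for CATC were 0.608 and 0.774, and 0.189 and 0.432. Cytosine made up 28.3% and 28.4% of the bases in the classes lower after SRSF3 depletion, and 19.1% and 21.1% in the classes higher after it. The part of base composition in these motif densities was not tested.

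GACGA was found mostly in exons lower after SRSF7 depletion, on few copies. The 210 exons lower after SRSF7 depletion held 26 copies, 0.0646 per 100 bases, and the 75 higher after it held 1 copy, 0.0120 per 100 bases, in the CASK exon. By class there were 22 copies in exons lower in both, 4 in those higher after SRSF3 and lower after SRSF7 depletion, 1 in the reverse and 0 in 2642 bases of exons higher in both, which allows up to 0.140 per 100 bases by the exact Poisson interval. Exons that the SRSF7 table lists and the SRSF3 table does not had 43 copies when lower (0.0557 per 100 bases) and 1 copy when higher (0.00711). The reverse complement TCGTC had 0.0472 and 0.0480 in the shared exons. Over all shared exons GATGA and GAAGA did not follow that order, with 0.142 and 0.169 in those lower and 0.228 and 0.240 in those higher after SRSF7 depletion. They had 0.134 and 0.156 in exons lower in both and 0.379 and 0.492 in those higher in both. In the opposed classes the densities did run in that order, on few copies. Exons higher after SRSF3 and lower after SRSF7 depletion had 0.205 (9 copies) and 0.273 (12 copies). Those of the reverse class had 0.158 (9 copies) and 0.123 (7 copies). The intervals overlap, and the differences were not tested. A match of letters is a description and not a binding site.

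Many shared exons were also listed after other depletions: 323 of the 389 were in at least 1 of the other 4 depletion tables, 17 were in all 4, and 66 were in none. Listing elsewhere was frequent over all listed exons too: 1705 of all 3354 SRSF3 exons and 1028 of all 1397 SRSF7 exons were in at least 1 of those 4. Both counts include the 323 shared exons. Lower exons made up 62.6% of all exons in the SRSF1 table, 73.5% in the SRSF2 table, 89.3% in the RBM39 table and 97.9% in the SF3B5 table. Of the 57 exons lower after SRSF3 and higher after SRSF7 depletion, SRSF1 depletion listed 29, with 24 higher and 5 lower than siNT1, and SRSF2 depletion listed 27, with 17 higher and 10 lower. RBM39 depletion listed 27, with 24 lower and 3 higher than siNT2. SF3B5 depletion listed 27, with 25 lower and 2 higher than siNT1. In the reverse class of 39, SRSF1 depletion listed 17 (13 lower), SRSF2 depletion 8 (7 lower), RBM39 depletion 16 (11 lower) and SF3B5 depletion 14, all lower. SRSF1, SRSF2 and SF3B5 share siNT1 with SRSF7, and RBM39 shares siNT2 with SRSF3, so these counts are given side by side only.

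SMARCA1, an ATPase of the ISWI chromatin remodellers, is a single case. Its 36-base coding exon (chrX:129493040-129493075) was at 43.6 in siNT2, 18.9 in siSRSF3 and 18.3 in siRBM39 cells, and at 38.0 in siNT1, 67.2 in siSRSF7, 77.8 in siSRSF1 and 60.6 in siSRSF2 cells. Both depleted groups of set 3 were below their control and the 3 listed groups of set 2 above theirs. Other exons of its class differed from it, and the counts for the whole class are given above. The 243-base HUWE1 exon was at 32.8 in siSRSF1 and 36.5 in siSRSF2 cells, below siNT1 at 61.1. The PARP6 exon was at 25.5 in siSRSF2 and 12.4 in siSF3B5 cells, below siNT1 at 56.0.

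Other pairs of depletions with separate controls gave same-direction shares on either side of that for SRSF3 and SRSF7. SRSF3 and SRSF1 shared 407 exons with 59.7% in the same direction, SRSF3 and SRSF2 shared 504 with 71.8%, SRSF3 and SF3B5 shared 1095 with 87.7%, and RBM39 and SRSF7 shared 404 with 67.8%. With both controls from 20 to 80 the shares were 46.3%, 53.1%, 68.2% and 56.1%, beside 61.1% for SRSF3 and SRSF7. The other 3 pairs, which include neither SRSF3 nor SRSF7, had 53.0% for RBM39 and SRSF1, 73.2% for RBM39 and SRSF2, and 95.9% for RBM39 and SF3B5, or 41.4%, 57.9% and 89.4% with both controls from 20 to 80. No difference between pairs was tested.

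Shared exons had lower control levels than exons listed after only 1 of the 2 depletions. Their median control PSI was 73.7 in siNT2, against 91.7 for the 2965 SRSF3 exons that the SRSF7 table does not list, and 71.3 in siNT1, against 81.2 for the 1008 SRSF7 exons that the SRSF3 table does not list. The median absolute changes were close, 24.1 against 23.6 points and 21.6 against 20.4 points. The members nearest the threshold were a 264-base exon of CHD1, a chromatin remodeller, at 14.3 in siNT1 and 29.4 in siSRSF7 cells, and a 989-base exon of ESPL1, the cohesin protease separase, at 96.2 in siNT2 and 81.1 in siSRSF3 cells. Events just outside it were not analysed here.

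The 20 shared introns comprised 8 lower in both, 6 higher in both, 4 lower after SRSF3 and higher after SRSF7 depletion and 2 the reverse. Lower retention was seen in 12 of 20 after SRSF3 and in 10 of 20 after SRSF7 depletion, against 45.3% and 29.0% of all introns in the 2 tables. Of the 2393 introns in the other 4 depletion tables, 4.89% were also listed after SRSF3 depletion, 4.18% after SRSF7 depletion and 0.627% after both. An 81-base intron of EME2, a partner of the MUS81 nuclease, was retained at 21.6 in siNT2 and 62.9 in siSRSF3 cells, and 20.9 in siNT1 and 44.5 in siSRSF7 cells. SLX4, a scaffold for DNA repair nucleases, had a 403-base intron at 37.2 and 58.0, and 43.7 and 75.5. GFM2, a mitochondrial ribosome recycling factor, had a 595-base intron at 5.30 and 21.0, and 5.08 and 33.4. MYLIP, a ubiquitin ligase for the LDL receptor, had a 1344-base intron at 17.2 and 43.8, and 24.9 and 46.2. All 4 were more often retained after both depletions.

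Introns lower in both included those of ZNF738, a zinc finger gene, at 39.7 and 15, and 50.4 and 24.4, and of HDAC10, a polyamine deacetylase, at 51.1 and 31.9, and 68.8 and 45.0. MINDY1, a deubiquitinase, had 27.3 and 6.35, and 45.1 and 20.9. In all 8 such introns siNT2 was below siNT1, by a median of 12.7 points, and with the controls exchanged 2 of the 8 kept changes above 15 points in both. A 107-base intron of TINF2, a shelterin subunit, was opposed, at 56.8 and 29.1 after SRSF3 depletion and 55.3 and 77.7 after SRSF7 depletion. That of LINC02193, a non-coding RNA, has 96 bases and was at 58.5 and 31.8, and 64.2 and 94.0. CCDC88A, the actin-binding protein girdin, had a 511-base intron at 24.0 and 5.67, and 24.5 and 46.7. REPIN1, a zinc finger gene, had 69.1 and 49.5, and 68.0 and 83.8. The 2 introns of the reverse class were in ATXN2L, an RNA-binding protein of stress granules, at 55.5 and 79.9, and 58.9 and 37.6, and in ZC3H4, a factor in transcription termination, at 21.8 and 40.1, and 30.9 and 14.4.

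Several genes had more than 1 shared event, 36 in all. POC1A, a centriole protein, had 4 exons, all lower in both, with controls from 95.6 to 97.9, values from 75.6 to 80.4 after SRSF3 depletion and values from 68.6 to 75.3 after SRSF7 depletion. DDB2, which recognises ultraviolet damage in DNA, had 3 exons lower in both. Its 120-base exon went from 73.3 to 22.7 and from 60.5 to 31.5, its 143-base exon from 72.6 to 23.5 and from 76.9 to 53.2, and its 100-base exon from 82.8 to 58.2 and from 78.7 to 60.7. SUN1 at the nuclear envelope, the transporter SLCO4A1, SLC26A11, PHYKPL, TMC6 and ZYG11A also had 3 exons each, all lower in both. Exons of 1 gene share transcripts and are not separate observations. Another 244 genes had events in both tables but none in common.

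Gene lists are given as genes with a shared event among genes with an event in either table, which was 361 of 3109 (11.6%) over all genes. SR protein genes had 1 of 4, hnRNPs and other splicing regulators 2 of 28, the core spliceosome 1 of 12, 3' end processing and export 1 of 10, splicing kinases and phosphatases 0 of 6 and nonsense-mediated decay factors 0 of 2. The few shared events of these lists were all lower in both, as were 257 of the 409 shared events over all genes. SRRM2, a large protein of the spliceosome and of nuclear speckles, had a 273-base exon at 66.7 and 45.3, and 65.1 and 41.5. PRPF40B, a component of the U1 complex, had a 165-base exon at 90.8 and 74.5, and 100 and 62.6. INTS11, the nuclease of the Integrator complex, had 98.7 and 81.6, and 98.3 and 81.0 for a 229-base exon.

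Mitosis, centrosome and spindle genes had a shared event in 8 of 58, with 5 events lower in both, 1 higher in both and 2 higher after SRSF3 and lower after SRSF7 depletion. MIS12, a kinetochore subunit, had an untranslated 394-base exon in the last class, at 54.1 and 74.8, and 61.8 and 25.5. CDK5RAP2, a centrosome protein, had a 237-base exon lower in both, at 65.5 and 43.1, and 63.1 and 40.1. That of CROCC, the rootlet protein rootletin, was at 87.6 and 69.6, and 84.3 and 62.6, which is uncertain because near-identical gene copies could share its reads. DNA damage and repair genes had 4 of 40, with 3 events lower in both, 2 higher in both and 1 higher after SRSF3 and lower after SRSF7 depletion. All 3 lower in both were the DDB2 exons above.

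Chromatin regulators had 12 of 65 (18.5%), with 5 events lower in both, 4 higher in both, 3 lower after SRSF3 and higher after SRSF7 depletion and 0 the reverse. HDAC3, a histone deacetylase, had a 143-base exon at 94.4 and 71.4, and 91.3 and 69.4. BRD1, a bromodomain protein of histone acetyltransferase complexes, had a 311-base exon at 45.2 and 10.6, and 31.0 and 6.89. PBRM1, the polybromo subunit of the PBAF remodeller, had a 156-base coding exon (chr3:52554724-52554879) with opposed changes, from 68.3 to 20.1 after SRSF3 depletion and from 66.5 to 86.6 after SRSF7 depletion. With 12 genes or fewer in any list, these counts are descriptions only.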

How the data were processed

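Stranded mRNA libraries of HEK293T cells were sequenced in 20 samples, 2 per group, of which 8 in 4 groups enter the SRSF3 and SRSF7 comparisons. The labels do not state if both samples of a group are separate cultures. Per the file headers, the deposited tables give average PSI per group in percent, their difference in percentage points (here treated as a score) and an event length. Their names point to VAST-TOOLS. Cutadapt, Bowtie and hg38 are named per the submitters' processing notes, while versions, read depth and the listing rule were not given in the sources used here. Only group averages were used, so no SD, n or test is given.

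Events were matched by identifier with Python 3.11.15 and pandas 2.3.3. Changes were recomputed as treated minus control. The control values were equal to the last digit in tables of 1 set (779 of 779 events common to SRSF3 and RBM39) and in none of the 445 common to SRSF3 and SRSF7. Coordinates and sequences are from GENCODE 29 (GRCh38), used where the length of an event fits just 1 annotated internal exon or intron of its gene, which held for 303 of 409 events. Motifs were counted with overlaps on the transcript strand and, as reverse complements, on the other. Intervals are exact Clopper-Pearson, Poisson or order-statistic 95% intervals (scipy 1.17.1) and cover counting error only, since exons are not independent. Scripts were tested on simulated data.

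Named events are those with the largest smaller-of-the-2 change in each combination of directions (10 exons lower in both, 8 in each other class, 4 introns per class), genes with most shared events, genes of 9 fixed lists, and those nearest the threshold or with the widest control difference. Events named outside this rule are marked where they appear. An event that this rule selects is not reported here. Members and lists were chosen with earlier results of these data known. Alternatives were 25 points in both tables, 1 event per gene, control PSI from 20 to 80, events in no other depletion table, exchanged controls, controls within 5 points and, for motifs, coding exons only.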

Additional observations from a re-analysis of the deposited data

How the results depend on the processing

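The 409 shared events became 60 with at least 25 points in both tables, 222 with both controls from 20 to 80, and 71 without those in another depletion table. The same-direction share of exons, 75.3%, became 86.4%, 61.1% and 81.8% under these settings and 81.7% with controls within 5 points of each other; the cause was not tested. The 20 introns, 70% in the same direction, left 1 at 25 points, LINC02193, which was opposed, so the share was 0%. Using 1 event per gene moved these shares by less than their counting intervals, as did exchanged controls, which could turn few directions. The median length of all shared exons ranged from 129 to 135 bases with 1 exon per gene, 25 points in both or exons over 27 bases only. With both controls from 20 to 80 it was 123.5 bases. The medians of exons lower in both and higher in both were not recomputed under these settings. Coding exons only were an alternative chosen after seeing the data. There CAAC had 0.497 and 0.0822 copies per 100 bases in exons lower and higher after SRSF3 depletion. GACGA had 0.0856 and 0.0174 in those lower and higher after SRSF7 depletion. In coding exons lower in both and higher in both, CTTC had 0.847 and 0.234, and CATC 0.618 and 0.234. GATGA had 0.120 and 0.234 there, and GAAGA 0.136 and 0.469. GATGA had 0.0867 (1 copy) in coding exons higher after SRSF3 and lower after SRSF7 depletion, and 0.112 (5 copies) in the reverse.

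No paired analysis was possible because only group averages were deposited in the tables used here, and for the same reason leaving out samples was not run. Unknown depth limits every value.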

Other observations

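Outside the exons and introns, both tables listed the same 22 alternative 3' splice sites and 14 alternative 5' splice sites. All 36 had a higher PSI after both depletions, as had all 626 alternative splice sites of the SRSF3 table and all 209 of the SRSF7 table, so their direction carries no information. The 5' splice site of LSM12, an Sm-like protein, was at 37.1 in siNT2 and 75.9 in siSRSF3 cells, and 39.1 in siNT1 and 81.1 in siSRSF7 cells. KAT6B, a histone acetyltransferase, had a 5' splice site at 48.3 and 96.5, and 31.6 and 66.4. CAMTA1, a transcription activator, had a 3' splice site at 32.3 and 59.8, and 42.0 and 85.9. That of BIRC6, an inhibitor of apoptosis, was at 40.3 and 66.1, and 42.3 and 71.2.

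The MLN8237 table listed 4 of the shared exons and 1 of the shared introns. Its share of all listed events is not given here, so these are single cases. Changes under MLN8237 are against DMSO. CADPS2, a factor in vesicle release, had a 21-base exon that was higher after both depletions, at 34.4 and 51.6, and 19.5 and 49.7, and was 16.6 points higher under MLN8237. The 158-base exon of C2CD3 went from 65.7 to 38.2 after SRSF3 and from 49.3 to 65.7 after SRSF7 depletion, and was 23.6 points higher under MLN8237. FBXW7, a substrate receptor of a ubiquitin ligase, had a 93-base untranslated exon at 88.6 and 65.7, and 85.6 and 69.6, which was 17.2 points higher under MLN8237. The intron of SNHG12, a non-coding RNA, was at 51.2 and 30.0, and 70.6 and 50.8. It was at 30.7 under MLN8237, a change of -29.9 points. The PKD1 exon was lower in both depletions and at 59.3 under MLN8237, a change of -27.6 points. Its value is uncertain because the gene has near-identical copies.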
